A study of Macaca fascicularis with 20 samples.

Results

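The genes DUSP2, DUSP5 and DUSP6, 3 of the 12530 genes that could be named on the arrays, encode dual-specificity phosphatases that switch off mitogen-activated protein (MAP) kinases. A probe was assigned to a gene when its transcript accession, without version number, belonged to that gene's symbol in the RefSeq gene table of the cynomolgus macaque (Macaca fascicularis). Each of the 3 genes had 1 probe, designed to the transcripts XM_005574979 (DUSP2), XM_005566410 (DUSP5) and XM_005571831 (DUSP6). The genes were chosen with their levels on these arrays already known, DUSP5 being among the genes of lowest unadjusted p between the single-positive subsets. Their levels and differences are therefore given as a description, with errors and without p-values. Only whether the fits over all genes called them is stated.

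Spleen cells of the macaques had been cryopreserved, thawed and sorted into subsets of natural killer (NK) cells and into B cells. RNA of the sorted cells was profiled without stimulation on 20 one-colour arrays. The NK cells were CD45+, NKG2A+ and CD8a+, and lacked CD3, CD14, CD20 and HLA-DR. They were divided by CD27, a costimulatory receptor, and by CD11b, which forms an integrin together with CD18. The groups were CD27+CD11b+ cells (double positives, 5 arrays), CD27loCD11b+ cells (CD11b single positives, 5 arrays), CD27loCD11blo cells (double-low cells, 4 arrays), CD27+CD11blo cells (CD27 single positives, 4 arrays) and CD20+HLADR+ B cells without NKG2A or CD8a (2 arrays). All animals were untreated as far as the labels say. Their labelled ages ran from 4 to 18 years, were unknown for replicate 2 of each NK subset, and differed between subsets, from 9 to 12 years, for replicate 3. No label identifies the animal, so the spread between arrays can include technical spread.

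MAP kinases, among them ERK, p38 and JNK, are activated when a kinase adds phosphate to a threonine and a tyrosine of the same loop, and dual-specificity phosphatases remove both. DUSP2 and DUSP5 are nuclear enzymes and DUSP6 is cytoplasmic. DUSP5 and DUSP6 act mainly on ERK, while DUSP2 also acts on p38. All are known as inducible genes whose transcription follows ERK signalling, so that they form a negative feedback loop, and DUSP2 was first described in activated lymphocytes.

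A level is the log2 of the processed intensity minus the log2 of the 75th percentile of its own array, so that 0 marks that percentile. The 75th percentile ran from 180.0 to 1897 units of intensity, and replicate 4 of the double positives (180.0) and of the double-low cells (199.6) were the dimmest arrays. Markers of NK cells, 12 of 12 measured, summed to between 70.7 and 343 times the 75th percentile on NK arrays, against 6.59 to 7.39 on B cell arrays. Markers of B cells, 9 of 11 measured, summed to between 1.62 and 9.85 on NK arrays, against 54.1 to 59.0 on B cell arrays. Of CD27 and CD11b, only CD27 had a matched probe. Its mean log2 level was lower in CD11b single positives than in CD27 single positives by 1.15 ± 0.43 (SE), which did not pass limma's test (adjusted p = 0.812). CD27 levels were 2.73, 2.31, 3.15 and 4.88 in double-low cells, against 4.87, 3.66, 4.07 and 4.68 in CD27 single positives. Cells were sorted by the CD27 protein, whereas these are levels of its RNA. By RNA, replicate 4 of the double-low cells lay above every CD27 single-positive array despite its CD27lo label. Replicate 4 of the CD11b single positives, also CD27lo, had 3.83, above the 3.66 of replicate 2 of the CD27 single positives. Replicate 4 of the double-low cells is also among the dimmest arrays. The differences of DUSP2, DUSP5 and DUSP6 between double-low cells and CD27 single positives are given with and without it.

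The highest of the 4 NK subset means was that of the CD27 single positives for all 3 genes. DUSP5, the nuclear phosphatase of ERK, was the steadiest of them. Its log2 levels were 3.82, 4.32, 2.73, 2.78 and 3.65 in double positives. They were 2.69, 2.99, 2.68, 2.42 and 3.67 in CD11b single positives. Double-low cells had DUSP5 levels of 3.39, 3.05, 3.38 and 3.67, against 4.62, 4.76, 4.03 and 4.61 in CD27 single positives. Every array of the CD11b single positives and of the double-low cells thus lay below every array of the CD27 single positives, while 1 double-positive array, at 4.32, reached into their range. The DUSP5 means were 3.46 ± 0.69 (SD, n = 5) in double positives, 2.89 ± 0.48 (n = 5) in CD11b single positives, 3.37 ± 0.25 (n = 4) in double-low cells and 4.50 ± 0.32 (n = 4) in CD27 single positives.

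DUSP2 was lower and far more variable. Its log2 levels were 0.88, 1.53, -2.65, 0.82 and -0.86 in double positives and -0.90, 0.12, -1.41, 0.30 and -2.53 in CD11b single positives. Double-low cells had DUSP2 levels of 0.98, -0.53, -1.59 and -1.71, against 3.39, 2.65, -0.62 and 0.26 in CD27 single positives. The 2 high values of the CD27 single positives are replicates 1 and 2, and their replicates 3 and 4 fall inside the range of the other subsets. The DUSP2 means were -0.06 ± 1.69 (SD, n = 5) in double positives, -0.88 ± 1.16 (n = 5) in CD11b single positives, -0.71 ± 1.25 (n = 4) in double-low cells and 1.42 ± 1.90 (n = 4) in CD27 single positives.

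DUSP6, the cytoplasmic phosphatase of ERK, had the widest range. Its log2 levels were 4.06, 3.79, -3.32, 3.18 and 2.07 in double positives and 2.98, 2.92, -0.55, 3.0 and 2.23 in CD11b single positives. Double-low cells had DUSP6 levels of 2.93, 1.86, 2.59 and -3.40, against 4.56, 3.94, 2.60 and 3.06 in CD27 single positives. Apart from 3 arrays, all NK values of DUSP6 lay between 1.86 and 4.56. The exceptions were replicate 3 of the double positives, with a DUSP6 intensity of 92.3, replicate 3 of the CD11b single positives, at 896, and replicate 4 of the double-low cells, at 18.9. Replicate 1 of the double positives had 31638. These intensities are not scaled. The 75th percentile was 199.6 on replicate 4 of the double-low cells and 1897 on replicate 1 of the double positives, whose scaled levels were -3.40 and 4.06. All 3 low arrays stood on the same slide, on which neither CD27 single-positive array was low. Replicate 3 of the double-low cells (2.59) and both B cell arrays (3.31 and 2.17) on that slide were not low either. The probes of DUSP2, DUSP5 and DUSP6 were well above background on all 20 arrays, the 3 low ones included. The DUSP6 means were 1.95 ± 3.05 (SD, n = 5) in double positives, 2.12 ± 1.52 (n = 5) in CD11b single positives, 0.99 ± 2.96 (n = 4) in double-low cells and 3.54 ± 0.88 (n = 4) in CD27 single positives.

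**Figure D1:**
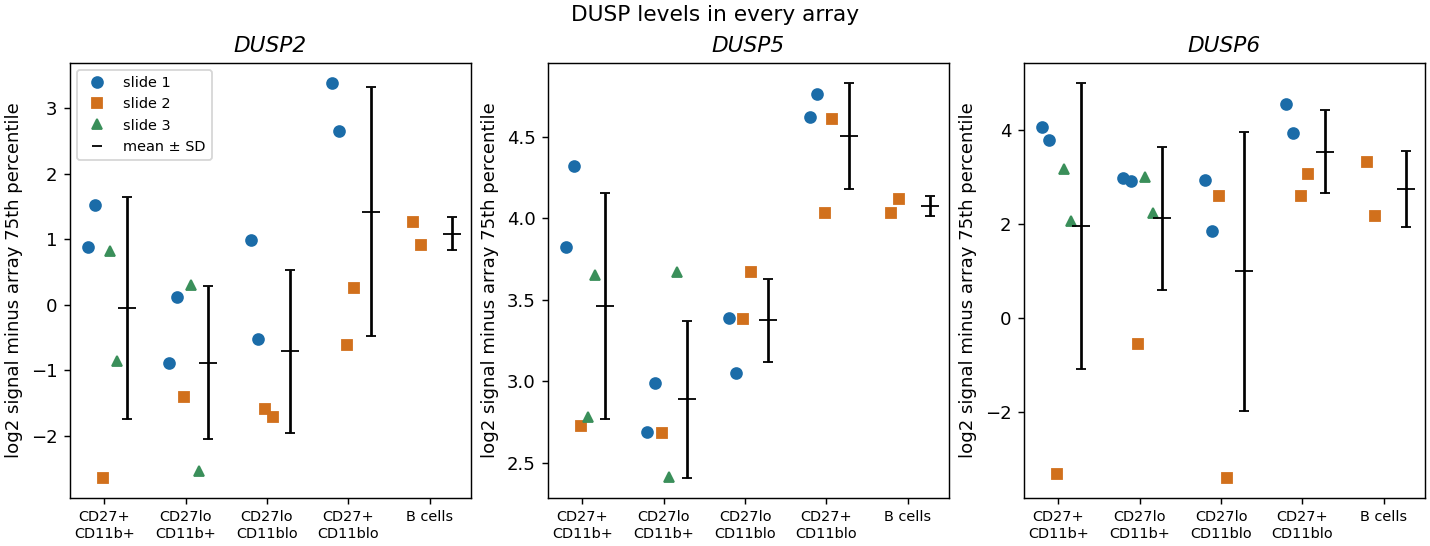
Log2 level of DUSP2, DUSP5 and DUSP6 (y axis, log2 signal minus the 75th percentile of the array) on each of the 20 arrays, by group on the x axis and with slides 1 to 3 by colour and shape; black bars give the mean ± SD. The DUSP5 points of the CD27+CD11blo cells, 4.03 to 4.76, lie above all points of both CD27lo subsets, and 3 DUSP6 points lie at or below -0.55.

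Over the 18 NK arrays the log2 range was 2.34 for DUSP5 (2.42 to 4.76), 6.03 for DUSP2 (-2.65 to 3.39) and 7.96 for DUSP6 (-3.40 to 4.56). The order of the 5 groups by mean was the same for DUSP2 and DUSP5, with CD27 single positives first, then B cells, double positives, double-low cells and CD11b single positives. For DUSP6 it was CD27 single positives, B cells, CD11b single positives, double positives and double-low cells. For DUSP2, DUSP5 and DUSP6 alike, the values of every pair of neighbours in these orders overlapped.

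The differences from CD27 single positives were all negative. CD11b single positives had a DUSP2 level lower by a log2 of 2.31 ± 0.93 (SE), or 4.94-fold, a DUSP5 level lower by 1.61 ± 0.36, or 3.06-fold, and a DUSP6 level lower by 1.42 ± 1.38. Double-low cells were lower by 2.13 ± 0.98 for DUSP2, by 1.13 ± 0.38 for DUSP5 and by 2.55 ± 1.45 for DUSP6. Double positives were lower by 1.48 ± 0.93 for DUSP2, by 1.04 ± 0.36 for DUSP5 and by 1.59 ± 1.38 for DUSP6. The DUSP6 differences were of the size of their standard errors in 2 of these 3 comparisons. Without replicate 3 of the double positives the DUSP6 difference between double positives and CD27 single positives was -0.27. Without replicate 4 of the double-low cells, the differences between double-low cells and CD27 single positives were -1.80 ± 1.06 for DUSP2, -1.23 ± 0.41 for DUSP5 and -1.08 ± 1.30 for DUSP6. Without replicate 3 of the CD11b single positives, the DUSP6 difference between CD11b single positives and CD27 single positives was -0.76. Without replicate 1 of the CD27 single positives, the DUSP2 difference of double positives was -0.82.

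Among the other 3 subsets the differences of DUSP2, DUSP5 and DUSP6 were smaller or carried larger errors. Double positives minus CD11b single positives gave 0.83 ± 0.88 for DUSP2, 0.57 ± 0.34 for DUSP5 and -0.16 ± 1.30 for DUSP6. Double positives minus double-low cells gave 0.66 ± 0.93 for DUSP2, 0.09 ± 0.36 for DUSP5 and 0.96 ± 1.38 for DUSP6. CD11b single positives minus double-low cells gave -0.17 ± 0.93 for DUSP2, -0.48 ± 0.36 for DUSP5 and 1.12 ± 1.38 for DUSP6. Several signs turned when 1 array was left out. The DUSP6 difference became 1.16 for double positives minus CD11b single positives without replicate 3 of the double positives. It became -0.51 for double positives minus double-low cells, and -0.34 for CD11b single positives minus double-low cells, without replicate 4 of the double-low cells. The DUSP2 difference of CD11b single positives minus double-low cells became 0.39 without replicate 1 of the double-low cells, and the DUSP5 difference of double positives minus double-low cells became -0.13 without replicate 2 of the double positives. These comparisons share arrays with each other and with those against CD27 single positives.

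**Figure D2:**
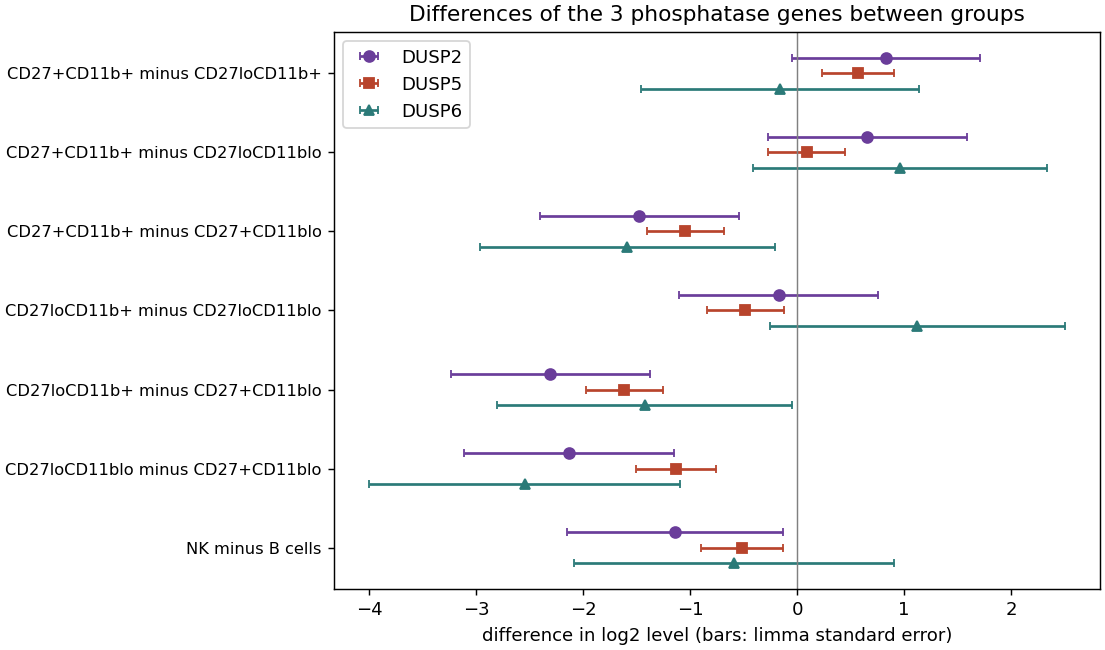
Difference in log2 level (x axis) of DUSP2, DUSP5 and DUSP6 in the 7 comparisons (y axis), with limma standard errors as bars and the first-named group minus the second. The 9 points against CD27+CD11blo cells lie between -2.55 and -1.04.

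None of the 3 genes passed an adjusted p of 0.05 in limma's fit of the 18 NK arrays, in which 0% of the 12192 genes tested were called in each of the 6 comparisons between subsets. Unadjusted p lay under 0.05 for between 295 genes (double positives against CD27 single positives) and 2562 genes (double positives against double-low cells). The median difference of all genes was -0.09 for double positives, 0.19 for CD11b single positives and 0.45 for double-low cells, each against CD27 single positives. Relative to that median, DUSP2, DUSP5 and DUSP6 were lower than in CD27 single positives by 1.38, 0.95 and 1.49 in double positives, by 2.49, 1.80 and 1.61 in CD11b single positives, and by 2.58, 1.58 and 2.99 in double-low cells. Of the genes tested, 1.2% had every array of the CD11b single positives below every array of the CD27 single positives, as DUSP5 did, 3.74% had every double-low array below them, again including DUSP5, and 0.271% had every double-positive array below them, none of them DUSP2, DUSP5 or DUSP6. DUSP2 and DUSP6 overlapped with CD27 single positives in all 3 comparisons. Because the genes were chosen on these differences, the shares are printed as a scale only. In RNA of sorted bulk cells, fewer expressing cells and less RNA per cell cannot be told apart.

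Arrays stood on 3 slides, of which the first and the second held all 4 NK subsets. On the first slide, DUSP5 was at or below 4.32 on the 6 arrays of the other subsets, against 4.62 and 4.76 in CD27 single positives. DUSP2 was there at or below 1.53 on those arrays, against 3.39 and 2.65. On the second slide, DUSP5 was at or below 3.67 on the 4 arrays of the other subsets, against 4.03 and 4.61 in CD27 single positives. DUSP2 was there at or below -1.41, against -0.62 and 0.26. Both genes therefore had CD27 single positives above every other NK array on each slide, although the DUSP2 levels differed between the slides. Of the genes tested, 2.95% did so on the first slide, 6.88% on the second and 0.591% on both, while 0.697% had CD27 single positives below every other NK array on both.

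DUSP6 did so on the second slide only, and there by 0.01, with 2.59 in replicate 3 of the double-low cells against 2.60 in replicate 3 of the CD27 single positives. That order was lost with normexp background correction. On the first slide DUSP6 reached 4.06 in a double-positive array, against 4.56 and 3.94 in CD27 single positives. Within slides, the difference of CD11b single positives from CD27 single positives was -1.85 and -1.64 for DUSP5, -3.40 and -1.24 for DUSP2, and -1.30 and -3.38 for DUSP6 on the first and second slide. The difference of double-low cells from CD27 single positives was -1.47 and -0.79 for DUSP5, -2.79 and -1.47 for DUSP2, and -1.85 and -3.24 for DUSP6. That of double positives was -0.62 and -1.59 for DUSP5, -1.81 and -2.47 for DUSP2, and -0.32 and -6.15 for DUSP6. All 18 within-slide differences of DUSP2, DUSP5 and DUSP6 from CD27 single positives were negative. They are not independent, since the comparisons on a slide share its 2 CD27 single-positive arrays. On the second slide double positives and CD11b single positives had 1 array each. The genes were also chosen with these levels known, so the signs are a description. The third slide held only the CD11b+ subsets, where double positives minus CD11b single positives gave 1.1 for DUSP2, 0.17 for DUSP5 and 0.00 for DUSP6.

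Transcripts that mark T cells varied along with the subsets. Of 8 T cell markers, CD3D, CD6 and TRAT1 were measured. Their summed level ran from 2.32 to 9.26 in double positives, from 1.39 to 11.6 in CD11b single positives, from 2.20 to 7.26 in double-low cells and from 5.85 to 11.3 in CD27 single positives. The medians were 4.76, 4.17, 5.45 and 8.29 in the same order, so the CD27 single positives had the highest median, as they had for DUSP2, DUSP5 and DUSP6. CD3D had mean log2 levels of 0.19 in double positives, 0.71 in CD11b single positives, 0.78 in double-low cells and 1.34 in CD27 single positives, against -1.74 in B cells, and was well above background on all 18 NK arrays. CD6 levels ran from -1.77 to 1.16 within the CD27 single positives. Its means were -1.85, -1.55, -1.41 and -0.79 in the 4 subsets, against -1.79 in B cells. TRAT1 had means of 1.58, 0.55, 1.16 and 2.07 in the same order, against -5.84 in B cells. Its means thus ordered the 4 subsets as those of DUSP2 and DUSP5 did. The part of T cell transcripts in the levels of DUSP2, DUSP5 and DUSP6 was not tested. The 8 measured monocyte markers of 9 summed to between 4.48 and 7.12 in CD27 single positives, within the 2.60 to 8.82 of the other subsets. Some other marker lists had a higher median sum in double-low cells than in CD27 single positives, where DUSP2, DUSP5 and DUSP6 were highest. Neutrophil markers, 5 of 6 measured, summed to between 4.56 and 6.55 in double-low cells, against 2.13 to 4.36 in CD27 single positives. Dendritic cell markers, 5 of 6 measured, summed to between 3.19 and 6.89 in double-low cells, against 2.02 to 2.98 in CD27 single positives, and reached 19.5 in replicate 5 of the CD11b single positives. Markers of splenic stroma, 6 of 8 measured, had medians of 4.73 in double-low cells and 2.70 in CD27 single positives. The part of these transcripts in the differences was not tested either.

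In B cells DUSP2 had log2 levels of 1.26 and 0.90, DUSP5 of 4.03 and 4.12, and DUSP6 of 3.31 and 2.17. The mean of the 4 NK subset means minus the B cell mean was -1.14 ± 1.0 (SE) for DUSP2, -0.52 ± 0.38 for DUSP5 and -0.59 ± 1.5 for DUSP6, beside a median of 0.36 over all genes. None of the 3 was called in limma's fit of all 20 arrays, which called 2.92% of 12389 genes, 213 higher and 149 lower in NK cells. That split depended on the scaling. It was 89 higher and 163 lower after quantile normalization, 97 and 157 after normexp correction and 88 and 166 with the deposited log2 values. For DUSP2, DUSP5 and DUSP6 the NK arrays ranged on both sides of the B cell values. Both B cell arrays stood on the second slide, where all 6 NK arrays had less DUSP2 than either B cell array, -1.29 ± 1.0 (SD, n = 6) against 1.08 ± 0.25 (n = 2). In that slide 11.4% of genes had both B cell arrays above every NK array. DUSP5 was below both B cell arrays in 5 of those 6 NK arrays and above both in 1, and DUSP6 was below both in 3 of 6.

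The genes nearest to each phosphatase over the 18 NK arrays were found by the root mean square difference between log2 levels, each gene first centred on its own mean. Nearest to DUSP5 were MORF4L1, a subunit of chromatin complexes, at 0.37, SLC25A3, the mitochondrial phosphate carrier, at 0.39, NR1D2, a nuclear receptor of the circadian clock, at 0.48, LOC102128841 at 0.50 and PABPC3, a poly(A)-binding protein, at 0.52. The median distance of all genes from DUSP5 was 1.22, and the SD of DUSP5 itself was 0.74. Nearest to DUSP2 were NAXE (0.88), BTF3 (0.88), PEX2 (0.89), DTNBP1 (0.89) and GMPR2 (0.89), against a median of 1.94 and a DUSP2 SD of 1.65. Nearest to DUSP6 were PXK at 1.04, PTPN12, a protein tyrosine phosphatase, at 1.1, ZNF182 at 1.14, PREP, a prolyl endopeptidase, at 1.19 and CENPS, a centromere protein, at 1.20, against a median of 2.49 and a DUSP6 SD of 2.28. The phosphatases were not each other's nearest genes. The distance also grows with a difference in SD, here 0.74, 1.65 and 2.28, so it cannot show whether they vary together. DUSP2 and DUSP5 lay 1.36 apart, DUSP2 and DUSP6 1.56 and DUSP5 and DUSP6 2.05. Of 12191 genes, DUSP2 ranked 77 and DUSP5 1287 in distance from DUSP6. From DUSP2, DUSP5 ranked 521 and DUSP6 1506. From DUSP5, DUSP2 ranked 8177 and DUSP6 11792. Since the arrays share slides and signal levels, these distances describe these arrays only.

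**Figure D3:**
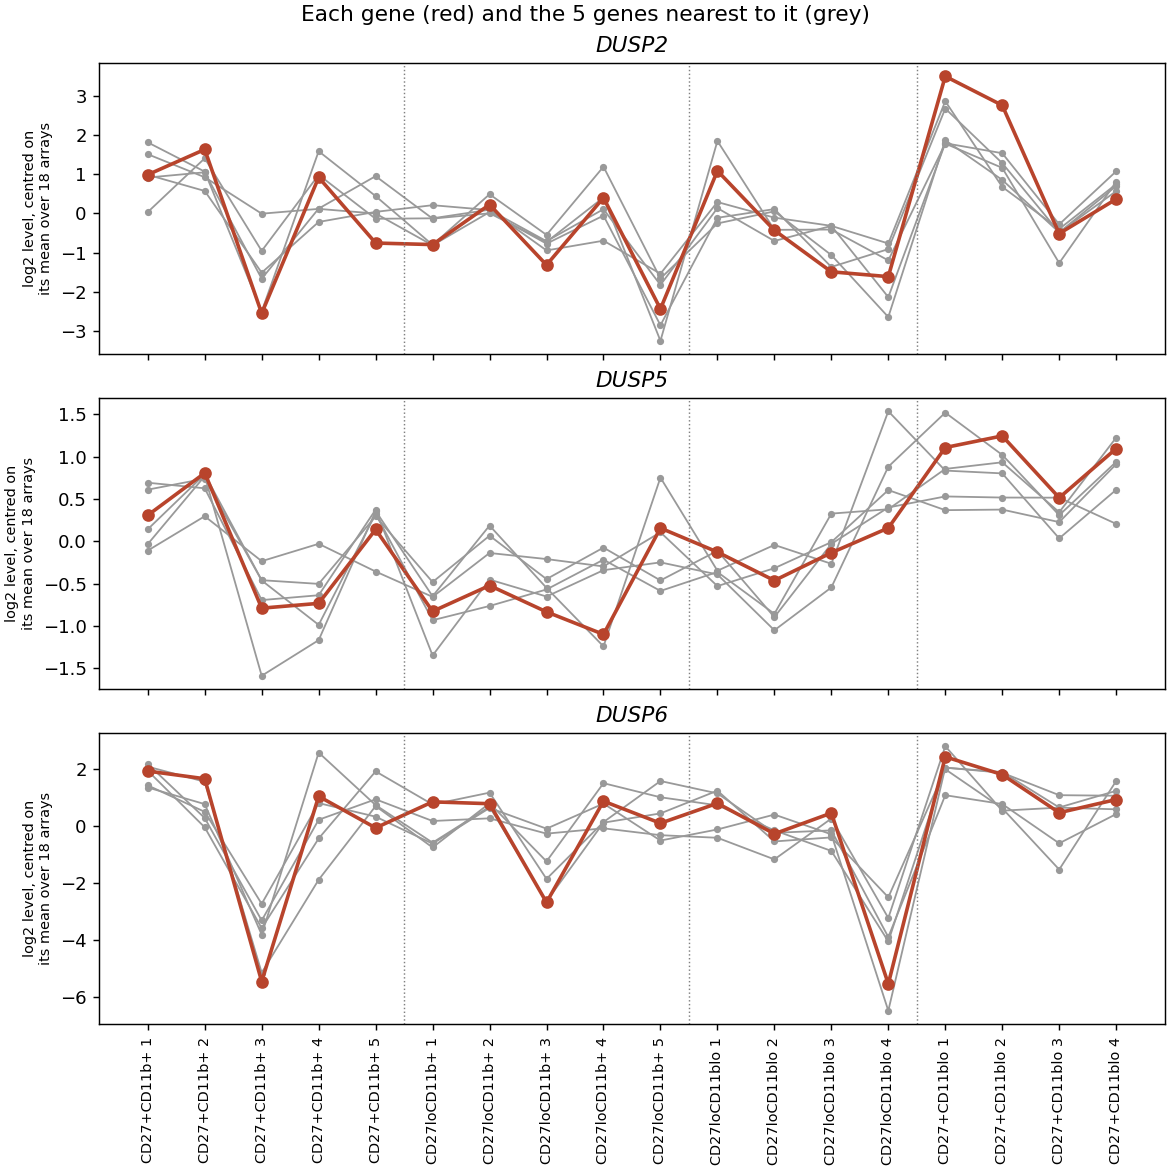
Log2 level of each phosphatase gene (red) and of the 5 genes nearest to it (grey), centred on the mean over the 18 NK arrays (y axis), across the arrays (x axis, with dotted lines between subsets). The grey lines of DUSP6 share its low points in replicate 3 of the CD27+CD11b+ cells and replicate 4 of the CD27loCD11blo cells. CENPS on the first of these arrays and PTPN12 on the second were not above background. The grey lines of DUSP2 share its high point in replicate 1 of the CD27+CD11blo cells. All grey genes were chosen for their nearness over these arrays.

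Other phosphatases of MAP kinases were measured for 8 of 10 listed genes, and none was called in any comparison, with at most 2 at an unadjusted p under 0.05 in a comparison. Their median difference from CD27 single positives was -0.45 in double positives, -0.33 in CD11b single positives and -0.46 in double-low cells, against -0.09, 0.19 and 0.45 for all genes. Values were negative for 8, 6 and 5 of the 8 genes in these comparisons, and for 5 of 8 in double positives with normexp correction. DUSP1, the inducible nuclear phosphatase of p38 and JNK and here chosen after its values were seen, had mean log2 levels of 3.48 ± 0.56 (SD, n = 5) in double positives, 2.95 ± 0.79 (n = 5) in CD11b single positives, 2.73 ± 0.94 (n = 4) in double-low cells and 4.08 ± 1.38 (n = 4) in CD27 single positives. The largest ranges of subset means in the list were those of DUSP16 (1.67), which acts on JNK and p38, DUSP9 (1.53), a cytoplasmic phosphatase of ERK, and DUSP10 (1.49), which acts on JNK and p38. DUSP10 means were 0.28 in double positives, -0.78 in CD11b single positives, -0.26 in double-low cells and 0.71 in CD27 single positives. DUSP16 means were -0.47, -0.71, -1.68 and -0.01 in the same order. DUSP9 was dim, with its highest mean, -4.21, in double-low cells, and was not well above background on either B cell array. PTPRR and PTPN5, also dim, likewise had their highest means outside the CD27 single positives. PTPRR means were -5.02, -4.47, -3.70 and -4.40 in the order above, and PTPN5 means were -6.02, -4.98, -4.99 and -6.00. The range of DUSP16 was 0.96 without replicate 4 of the double-low cells. That of DUSP9 was 0.98 without replicate 5 of the double positives, and 0.63 to 0.75 under the 3 other scalings.

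Atypical dual-specificity phosphatases, which lack the docking domain for MAP kinases, were measured for 9 of 15 listed genes, and 0 were called in any comparison (at most 1 at an unadjusted p under 0.05). Their median difference from CD27 single positives was -0.36 in double positives, -0.10 in CD11b single positives and -0.11 in double-low cells. The second value was 0.02 with normexp correction, and the third was -0.05 without replicate 4 of the double-low cells. DUSP3, which dephosphorylates ERK and JNK, had the widest range, with means of -1.28 ± 1.71 (SD, n = 5) in double positives, -2.66 ± 1.91 (n = 5) in CD11b single positives, -2.10 ± 1.05 (n = 4) in double-low cells and -0.46 ± 0.98 (n = 4) in CD27 single positives. DUSP22 had its highest mean, 0.45, in double positives, against -1.48 in CD11b single positives, -1.28 in double-low cells and -1.17 in CD27 single positives. The range of DUSP3, 2.20, was 1.34 with normexp correction. DUSP12 ranged over 1.28 and had its lowest mean, -3.13, in double-low cells. Its range was 0.62 without replicate 4 and 1.92 without replicate 3 of the double-low cells, and 2.27 without replicate 4 of the double positives.

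The kinases and adaptors of the ERK cascade, 14 of 22 listed genes measured, had a median difference of -0.15 in double positives, -0.40 in CD11b single positives and -0.96 in double-low cells, each against CD27 single positives. In double positives the value was 0.08 with normexp correction. Of the 14 genes, 12 had a negative difference in double-low cells (11 with normexp correction), and none was called in a comparison between subsets, with at most 5 at an unadjusted p under 0.05. MAP2K1, a kinase that activates ERK, averaged 1.77 ± 0.85 (SD, n = 5) in double positives, 0.69 ± 1.49 (n = 5) in CD11b single positives, -1.16 ± 3.47 (n = 4) in double-low cells and 1.23 ± 1.43 (n = 4) in CD27 single positives. Its lowest array, replicate 4 of the double-low cells, was not above background. RPS6KA1, a kinase activated by ERK, averaged 2.59 ± 0.69 (n = 5), 2.03 ± 0.72 (n = 5), 0.47 ± 1.52 (n = 4) and 2.11 ± 0.69 (n = 4) in the same order. All 4 of its double-low values lay below those of the CD27 single positives, as for 3.74% of all genes, with 1.52 as the highest double-low value and 1.55 as the lowest of the CD27 single positives, and the difference of -1.65 ± 0.63 did not pass limma's test (adjusted p = 0.374). RPS6KA3, its close relative, had means of -1.37, -2.01, -3.31 and -1.20. Without replicate 4 of the double-low cells, the double-low means were 0.54 for MAP2K1, 1.19 for RPS6KA1 and -2.32 for RPS6KA3, and the median difference of the list from CD27 single positives was -0.75.

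Feedback inhibitors of ERK signalling other than these phosphatases, 8 of 12 listed genes tested, had median differences from CD27 single positives of 0.05 in double positives, 0.05 in CD11b single positives and -0.19 in double-low cells. After quantile normalization these were 0.32, -0.03 and -0.55, and with the deposited values 0.31, -0.04 and -0.55. Without replicate 4 of the double-low cells the third was -0.08. None of the 8 was called between subsets (0 at an unadjusted p under 0.05 in all 6 comparisons). The widest ranges were those of IER3 (1.52), ETV3 (1.33) and SPRY2 (1.31). These ranges depended on single arrays. That of IER3 was 0.96 without replicate 2 of the double positives, 2.47 without replicate 2 of the double-low cells and 0.92 with normexp correction. That of ETV3 was 2.29 without replicate 3 of the double positives, and that of SPRY2 was 0.81 without replicate 4 of the double-low cells. ETV3, a transcriptional repressor, had means of 2.03 in double positives, 0.70 in CD11b single positives, 1.09 in double-low cells and 2.0 in CD27 single positives. SPRY2, an inhibitor of receptor signalling to ERK, had means of 2.55, 2.07, 1.24 and 2.53 in the same order.

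The p38 and JNK cascades, 16 of 22 listed genes measured, had median differences from CD27 single positives of 0.06 in double positives, -0.52 in CD11b single positives and -0.15 in double-low cells. The last was 0.18 with normexp correction, -0.80 after quantile normalization, -0.78 with the deposited values and -0.26 without replicate 4 of the double-low cells. None was called between subsets, with at most 3 at an unadjusted p under 0.05. GADD45A, a stress-inducible activator of the p38 pathway, averaged 1.61 ± 2.07 (SD, n = 5) in double positives, 0.84 ± 0.75 (n = 5) in CD11b single positives, 1.93 ± 1.64 (n = 4) in double-low cells and 3.39 ± 1.13 (n = 4) in CD27 single positives. Every CD11b single-positive array was below every CD27 single-positive array for GADD45A, as for DUSP5 and for 1.2% of all genes, with a difference of -2.55 ± 0.91 (limma adjusted p = 0.812). MAP3K4, the kinase that GADD45 proteins bind, had means of -1.11, -2.20, -2.43 and -0.53 in the order of the subsets above, and TAB2, an adaptor of the kinase TAK1, of 0.82, -0.02, -0.86 and 0.73, the third being -0.17 without replicate 4 of the double-low cells.

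Early transcripts that respond to ERK, 20 of 24 listed genes measured, had a median difference from CD27 single positives of -0.29 in double positives, -1.02 in CD11b single positives and -0.82 in double-low cells, with 15, 17 and 18 of the 20 genes negative. Under quantile normalization, normexp correction and the deposited values, 17 to 18 of 20 were negative in CD11b single positives and 18 of 20 in double-low cells. No early transcript was called between subsets, and at most 4 had an unadjusted p under 0.05 in a comparison. NR4A2, an orphan nuclear receptor, averaged 1.93 ± 1.32 (SD, n = 5) in double positives, 0.10 ± 1.64 (n = 5) in CD11b single positives, 0.71 ± 0.48 (n = 4) in double-low cells and 2.70 ± 1.1 (n = 4) in CD27 single positives. Its difference between CD11b and CD27 single positives was -2.61 ± 0.77 (limma adjusted p = 0.812). ATF3, a transcription factor of the stress response, had means of -1.84, -2.90, -1.92 and -0.58 in the same order, again with the CD27 single positives highest. KLF6, a zinc finger factor, had means of 2.99, 2.85, 1.30 and 3.23, and its 4 double-low arrays ranged from -1.39 to 3.29, with a mean of 2.20 without replicate 4. Without that array the median difference of the early transcripts in double-low cells was -0.55, with 18 of 20 again negative.

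**Figure D4:**
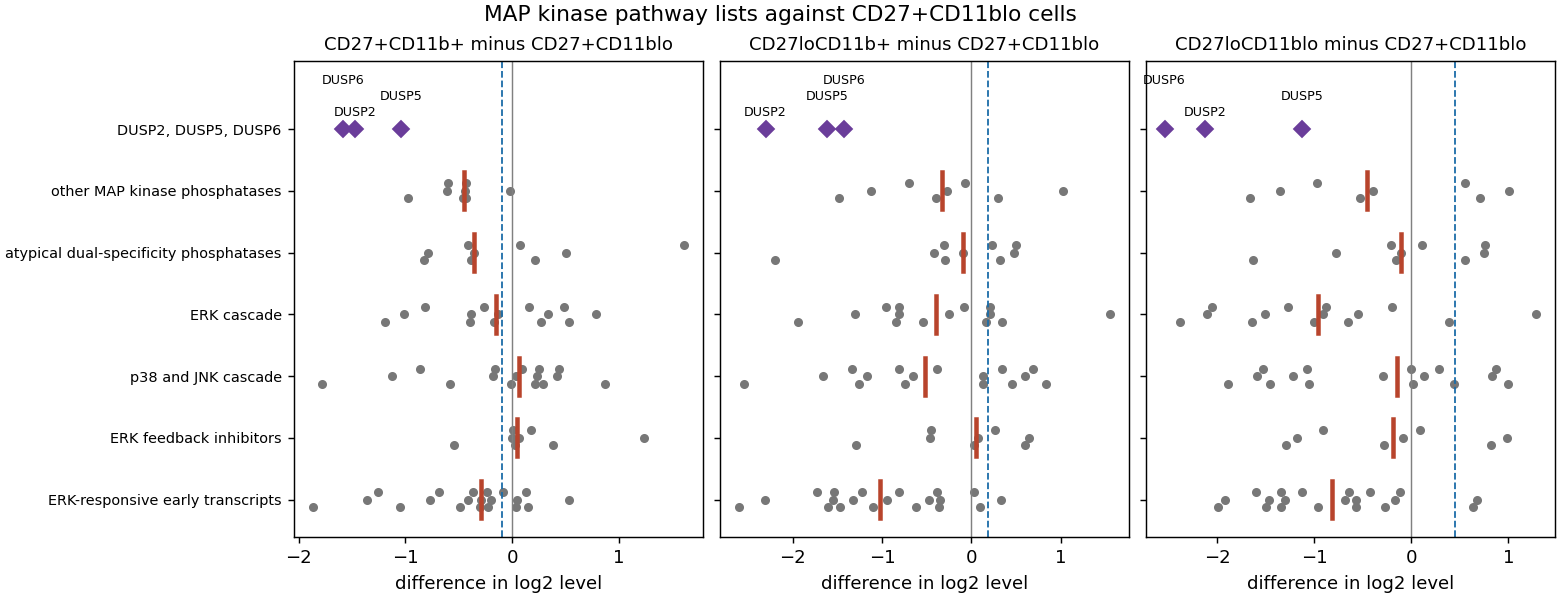
Difference in log2 level (x axis) from CD27+CD11blo cells of the 3 phosphatase genes (purple diamonds) and of each measured gene of 6 lists (grey points), in 3 comparisons. Red bars mark the list medians and the dashed blue line the median of all genes, -0.09, 0.19 and 0.45 from left to right; the early transcripts have a median of -1.02 in CD27loCD11b+ cells.

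Between NK and B cells, where 2.92% of genes were called, 6 of the 75 listed genes tested were called. SPRY2 rose in NK cells by a log2 of 4.68 ± 0.78 (limma adjusted p = 0.00158), with all 18 NK arrays above both B cell arrays, as for 7.44% of genes. MAP2K7, a kinase that activates JNK, was higher in NK cells, at least 2.27-fold (adjusted p = 0.00173, limma), and MAPK11, an isoform of p38, at least 2.92-fold (adjusted p = 0.0467, limma). Neither MAP2K7 nor MAPK11 was well above background on a B cell array, so these bounds are set against the lowest signal well above background there. They hold for the main scaling only. With normexp correction the log2 differences were 1.22 for MAP2K7 and 0.96 for MAPK11, the latter smaller than its bound. CCL3, a chemokine, was higher by 2.03 ± 0.48 (adjusted p = 0.0272, limma). MAP3K5, a stress-activated kinase upstream of p38 and JNK, was lower in NK cells (adjusted p = 0.00858, limma), but it was well above background on only 6 of 18 NK arrays and on none of the CD11b single positives. With each NK array set at no less than its lowest signal well above background, MAP3K5 was at least 5.23-fold lower in NK cells under the main scaling. It was not called with normexp correction, where the difference was -1.32 (limma adjusted p = 0.183). NF1, a protein that inactivates RAS, fell by 2.21 ± 0.52 (adjusted p = 0.0256, limma). All 6 calls were lost without either of the 2 B cell arrays. Those of MAP2K7, MAPK11, CCL3, MAP3K5 and NF1 were also lost with sets inferred from the labels' origin, sex, age and number as a block.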

How the data were processed

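RNA of sorted spleen cells underwent isothermal linear amplification of the whole transcriptome, Cy3 labelling and hybridisation to a custom Agilent array, per the labels' protocols. Per the submitters' processing notes, the tools were Agilent Feature Extraction 10.7.1.1 and Partek (its version is not given in the sources used here). The deposited processed signal is an intensity from which, per the file headers, the scanner software had subtracted background and a spatial trend. The deposited matrix holds log2 values with 1 set of quantiles for all arrays and a column median of 8.02. Each of its columns correlated with its own scanner file at 0.994 or more; it served as an alternative only.

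Control spots and spots marked as outliers were left out and spots of a probe averaged, giving 58659 probes, of which 20417 (34.8%) matched 12530 genes by accession in the RefSeq table (assembly T2T-MFA8v1.1). No coordinates or sequences are given, since the array's build is not stated in the sources used here. Tests between subsets took probes that at least 4 of the 18 NK arrays measured well above background, and those with B cells took probes that at least 2 of 20 arrays did. A gene with several probes was represented by the brightest. The processed signal was scaled to each array's 75th percentile, put on the log2 scale and fitted in R 4.3.3 with limma 3.58.1 (lmFit, eBayes with trend and robust), with no block, and p was adjusted by Benjamini-Hochberg over all genes at 0.05. Errors of differences are limma standard errors, whose size the number of arrays limits. The fit was tested on simulated data.

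DUSP2, DUSP5, DUSP6 and the gene lists were chosen with earlier results of these data known. Named genes were these 3, the 5 genes nearest to each, the 3 of widest subset range and those called in each list, and CD27. DUSP1, PTPRR and PTPN5 were named outside this rule, after their values were seen. Alternatives were quantile normalization, normexp with an offset of 50 (on median spot signals, since the planned mean signals are not in the files), the deposited values, other filters and probe rules, blocks, array weights and subsets of arrays.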

Additional observations from a re-analysis of the deposited data

Results flagged for a closer look

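An array was singled out where its gap to the nearest array of its group, divided by the range of the group, exceeded Dixon's 95% critical value (0.829 for 4 arrays, 0.71 for 5). Chance flags about 1 in 20 independent groups, and here 13 of 172 groups of 4 or 5 arrays (7.56%) exceeded it. The groups share the same arrays, and part of the genes were chosen for their nearness to a phosphatase over them. The share can therefore not be set against that rate. For DUSP6 the flagged arrays were replicate 3 of the double positives at a log2 level of -3.32 (nearest array 2.07), replicate 3 of the CD11b single positives at -0.55 (nearest 2.23) and replicate 4 of the double-low cells at -3.40 (nearest 1.86). PTPN12, near to DUSP6 over the arrays, was low on replicate 3 of the double positives at -2.52 and, not above background, on replicate 4 of the double-low cells at -6.26. CENPS was at -6.25, also not above background, on replicate 3 of the double positives. PREP was high on replicate 1 of the CD27 single positives at 3.64. Among the genes near DUSP5, NR1D2 was at 2.18 on replicate 4 of the CD27 single positives and PABPC3 at 1.58 on replicate 4 of the double-low cells. DUSP22 was at -4.91 on replicate 5 of the CD11b single positives. DUSP12 was at -5.84 on replicate 4 of the double positives, where it was not above background, and at -5.13 on replicate 5 of the CD11b single positives. KLF6 was at 2.45 on replicate 5 of the double positives.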

How the results depend on the processing

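The differences of DUSP2, DUSP5 and DUSP6 from CD27 single positives kept their sign in all 3 comparisons under every alternative run, each array left out in turn included. These runs share arrays, and the genes were chosen with their levels known. The differences moved by more than the spread between replicates on single slides. DUSP6 gave -6.15 in double positives and -3.38 in CD11b single positives on slide 2, and DUSP5 gave -1.47 on slide 1 and -0.79 on slide 2 in double-low cells. Without single arrays, DUSP2 ranged from -2.98 to -1.65 in CD11b single positives, from -2.81 to -1.48 in double-low cells and from -2.15 to -0.82 in double positives. DUSP5 ranged from -1.81 to -1.50 in CD11b single positives, from -1.29 to -1.02 in double-low cells and from -1.26 to -0.86 in double positives. DUSP6 ranged from -1.74 to -0.76, from -3.19 to -1.08 and from -2.11 to -0.27 in the same order. Between the other subsets, slide 2 gave -1.23 for DUSP2 and -2.78 for DUSP6 in double positives minus CD11b single positives, where slide 1 gave 1.23 for DUSP5. In double positives minus double-low cells, slide 2 gave -1.0 for DUSP2, -0.80 for DUSP5 and -2.91 for DUSP6, and slide 1 gave 0.85 for DUSP5. NK cells minus B cells on slide 2 gave -3.10 for DUSP6. The cause of these shifts was not tested.

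Counts of called genes stayed at 0 between subsets except as follows. Double positives against double-low cells gave 3 with normexp correction, 1 with probes well above background on every array, 3119 with array weights, of them 7 listed genes, 1 with all 20 arrays in the fit, and 0 to 4 without single arrays. Double positives against CD27 single positives gave 1 with normexp correction, with probes well above background on every array, with every probe tested and with all 20 arrays, and 0 to 1 without single arrays. Array weights gave 1 for CD11b single positives against double-low cells and 4 for CD11b against CD27 single positives, where leaving out arrays gave 0 to 1. NK against B cells gave 362 genes, but 200 with probes well above background on every array, 1824 with every probe tested, 84 with the donor label as a block, 600 with slide as a block, 5637 with array weights and 1926 on slide 2. It gave 64 without either B cell array and 719 without replicate 4 of the CD11b single positives. Of the listed genes, 3 were called there with normexp correction, 1 with the donor label as a block and 23 with array weights, and 0 to 8 without single arrays. SPRY2 was called in 31 of 33 alternatives, NF1 in 30 of 33, CCL3 in 26 of 33, MAP2K7 and MAP3K5 each in 28 of 32 and MAPK11 in 13 of 32.

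The labels do not say that a replicate number marks 1 animal. Deviations of same-numbered arrays from their group means correlated at over 0.1 in 17 of 25 pairs (median 0.222, from -0.297 to 0.413). Most same-numbered pairs thus varied together to some degree, and many of them also shared a slide. The main fit had no block, so its standard errors do not account for this. With the replicate block, 0 genes were called in each comparison between subsets, and the differences of CD11b from CD27 single positives were -2.0 for DUSP2, -1.74 for DUSP5 and -1.45 for DUSP6. Arrays were also lined up in sets inferred from the labels' origin, sex, age and number, the donor label used above as a block. In a set the labelled ages ran from 9 to 12 years, and in another they were unknown. A further set joined replicates 4 and 5 of different subsets, so the sets need not be animals. CD27 single positives were the highest of the 4 subsets in 4 of 4 sets for DUSP2, DUSP5 and DUSP6, as for 1.06% of genes. For DUSP6 this rested in a set on 2.60 against 2.59, and it held in 2 of 4 sets with normexp correction. The genes were chosen with these levels known, so this is a description. Arrays of low signal limit dim probes. DUSP2, DUSP5 and DUSP6 were well above background throughout, but replicate 4 of the double-low cells had intensities of only 18.9 for DUSP6 and 61.0 for DUSP2. The DUSP6 difference of CD11b single positives minus double-low cells was 1.12, and 0.57 with normexp correction. The part of array signal in these levels was not tested.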
